A study of Homo sapiens with 15 samples.

Results

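The genes described here are 10 components and targets of BMP signaling, taken by symbol from a table of 37787 genes. They are the ligands BMP2 and BMP4, the proteinase BMP1, the receptors BMPR1A and BMPR2, the antagonist GREM1 and the target genes ID1, ID2, ID3 and ID4. All 10 were present and all 10 were among the 13868 genes that passed the filter on low counts. RNA came from HGrC1, an immortalized line of non-luteinized human granulosa cells whose own FOXL2 alleles are normal, used at passage 14. There were 5 conditions with 3 libraries each, lettered A, B and C: empty vectors (Vectors), SMAD3 with wild-type FOXL2 (FOXL2WT), SMAD3 with the mutant carried by adult granulosa cell tumors (FOXL2C134W), and each of these combinations with FOXO1-3A, a constitutively nuclear form of FOXO1 (FOXL2WT+FOXO1 and FOXL2C134W+FOXO1). Every library went through 4 h of lipofection and 24 h without serum. SMAD3 was thus added in every condition but Vectors, the plasmids were expressed transiently, and no condition held FOXO1 or SMAD3 alone. The labels do not say whether the 3 libraries of a condition came from separate transfections, so p-values measure the spread between these libraries, which may be technical.

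BMPs are secreted ligands of the TGF-beta family. They bring type I receptors such as BMPR1A together with the type II receptor BMPR2, and the receptors phosphorylate SMAD1, SMAD5 and SMAD9, which enter the nucleus with SMAD4. SMAD3, the factor transfected here, belongs to the other branch, that of TGF-beta and activin. The ID genes are direct targets of the BMP branch in many cell types. ID proteins bind E proteins, which are basic helix-loop-helix transcription factors, and keep them off DNA. Gremlin 1, the product of GREM1, binds BMP2 and BMP4 and blocks them. BMP1, despite its name, is a procollagen C-proteinase that also cleaves the BMP antagonist chordin. In the ovary, BMPs from theca cells, oocytes and granulosa cells modulate steroid production and luteinization.

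The libraries held between 14962245 and 25339094 estimated counts. Levels are in CPM, a gene's counts relative to the TMM-scaled library size, and levels of different genes are compared only in TPM, which also corrects for transcript length. The RNA of the transfected genes differed in level between conditions. From an immunoblot of parallel cultures, the study reported balanced protein of FOXL2WT, FOXL2C134W and FOXO1. RNA levels may thus not reflect protein levels. FOXL2 was at 8.28 to 9.54 CPM in Vectors, 554 to 566 CPM in FOXL2WT, 121 to 175 CPM in FOXL2C134W, 374 to 401 CPM in FOXL2WT+FOXO1 and 139 to 176 CPM in FOXL2C134W+FOXO1. SMAD3 stood at 249.3 ± 12.0 CPM (SD, n = 3) in Vectors, 2768 ± 154 CPM in FOXL2WT, 843 ± 37.4 CPM in FOXL2C134W, 969 ± 10.8 CPM in FOXL2WT+FOXO1 and 392 ± 16.9 CPM in FOXL2C134W+FOXO1. Of 18 granulosa cell markers, 12 passed the filter, among them the transfected FOXL2. The others ranged from GATA4, at 129 to 154 CPM, to NR5A2, with 3 to 13 counts per library. FSHR, LHCGR and ESR2 had at most 3 counts in every library. CYP19A1, INHA and AMHR2 did not pass the filter either, with at most 4, 4 and 7 counts. Of 5 epithelial markers 3 were expressed, mostly the keratin KRT7, and their sum was lower in Vectors (1163 to 1370 CPM) than in any other library (1506 to 1988 CPM). The 4 endothelial markers summed to 21.9 to 22.6 CPM in Vectors and 16.3 to 19.5 CPM in the other conditions, and 2 expressed leukocyte markers to 104 to 118 CPM and 90.2 to 98.4 CPM. Theca and stroma markers summed to at most 2.09 CPM. The part of the levels of FOXL2, SMAD3 and these markers in the differences below was not tested.

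**Figure D1:**
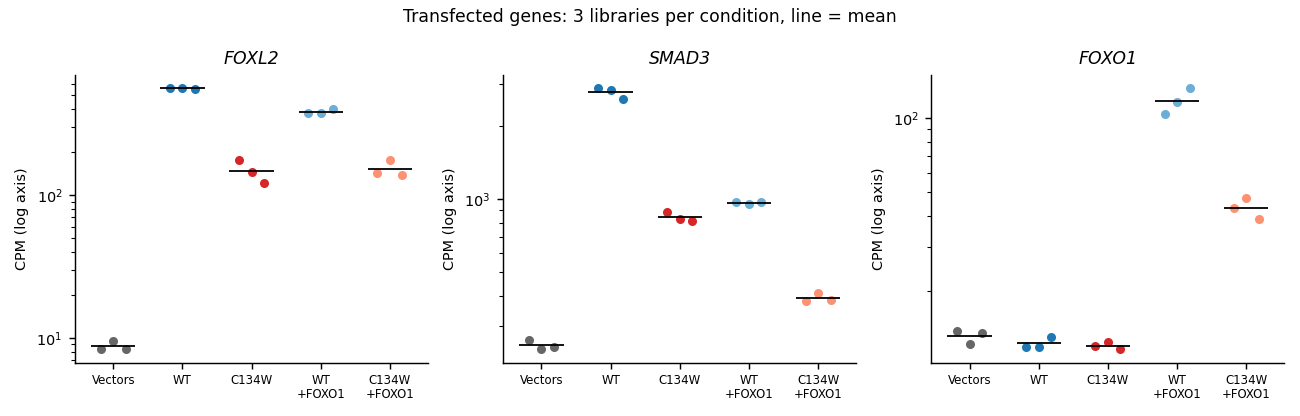
CPM of the transfected genes FOXL2, SMAD3 and FOXO1 on a log axis, 3 libraries (points) and their mean (line) per condition. FOXL2 and SMAD3 RNA were both lower in FOXL2C134W than in FOXL2WT, with FOXL2 at 121 to 175 CPM against 554 to 566 CPM. Protein is not shown.

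The 250 bases before the annotated start of 4 members are shown. In FOXL2C134W against FOXL2WT, ID2, ID4 and GREM1 were lower with an edgeR adjusted p under 0.05, and ID1 did not reach it. These calls were kept in 2 (ID2), 1 (ID4) and 0 (GREM1) of 6 fits that left out 1 library. The interval of ID1, -0.19 to 0.10 on the log2 scale, contained the changes of ID2 (-0.18), ID4 (-0.18) and GREM1 (-0.16). ID1 was thus not shown to differ from them. The sequences are RefSeq windows of GRCh38.p14 in the sense of the gene. The first bases of the ID2, ID4 and ID1 transcripts with most of the TPM lie right after these windows. In GREM1 this holds for a transcript with 23.6% ± 3.33 (SD over 15 libraries) of the TPM. Capitals mark matches, on either strand, to GGCGCC, a GC-rich element of the BMP SMADs, or to CAGAC, a SMAD3 box.
ID2, chr2:8681806-8682055, plus strand: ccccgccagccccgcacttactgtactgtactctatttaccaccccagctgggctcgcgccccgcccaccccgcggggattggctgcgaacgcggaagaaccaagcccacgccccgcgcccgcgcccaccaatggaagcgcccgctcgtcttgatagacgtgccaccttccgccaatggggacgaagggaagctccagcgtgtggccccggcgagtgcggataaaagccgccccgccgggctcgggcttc
ID4, chr6:19837120-19837369, plus strand: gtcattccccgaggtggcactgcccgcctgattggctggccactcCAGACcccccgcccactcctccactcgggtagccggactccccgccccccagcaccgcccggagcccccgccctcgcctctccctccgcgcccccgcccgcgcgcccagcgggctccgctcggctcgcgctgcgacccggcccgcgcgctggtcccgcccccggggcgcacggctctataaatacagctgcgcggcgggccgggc
GREM1, chr15:32717754-32718003, plus strand: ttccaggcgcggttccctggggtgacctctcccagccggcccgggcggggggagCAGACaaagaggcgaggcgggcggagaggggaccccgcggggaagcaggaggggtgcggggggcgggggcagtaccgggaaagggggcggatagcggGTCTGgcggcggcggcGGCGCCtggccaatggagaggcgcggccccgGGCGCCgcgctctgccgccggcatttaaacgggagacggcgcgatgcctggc
ID1, chr20:31605039-31605288, plus strand: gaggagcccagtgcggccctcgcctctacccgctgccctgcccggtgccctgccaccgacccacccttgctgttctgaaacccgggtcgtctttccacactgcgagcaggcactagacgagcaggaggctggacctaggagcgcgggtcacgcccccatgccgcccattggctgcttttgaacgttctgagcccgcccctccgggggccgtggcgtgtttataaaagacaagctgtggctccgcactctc
GREM1 held 2 matches to GGCGCC and 2 to CAGAC, ID4 held 1 match to CAGAC, and ID2 and ID1 held neither. A second GREM1 window, chr15:32718234-32718483, lies just before the start of GREM1-204, the transcript with 74.8% of the TPM, and held 1 match to CAGAC and none to GGCGCC. Over all 35116 windows of this length, 16.4% held GGCGCC and 38.0% held CAGAC. Neither the forkhead core GTAAACA (2.98% of all windows) nor the palindromic SMAD element GTCTAGAC (0.182%) was found in any of them. No motif contains another. These are matches of letters, and no binding was measured. Of the members, 8 have such a window in the RefSeq table. Of those not printed, none was called in FOXL2C134W against FOXL2WT. BMPR2 held 1 match to GGCGCC and 2 to CAGAC, ID3 1 to CAGAC and BMPR1A neither. BMP4 held both elements in chr14:53955051-53955300, CAGAC alone in chr14:53953396-53953645 and neither in chr14:53954489-53954738. The printed GREM1 window had 76.8% GC, against a median of 58.0% over all windows.

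In TPM, ID3 was the member with the highest level, followed by GREM1 and ID1. ID3 had 243 to 323 TPM over the 15 libraries, GREM1 156 to 200 TPM and ID1 151 to 204 TPM, so that GREM1 and ID1 overlapped fully. BMP4 came next with 94.2 to 110 TPM. ID2 (32.3 to 47.6 TPM), BMP1 (30.8 to 41.4 TPM) and BMPR1A (26.4 to 43.0 TPM) formed an overlapping group. BMPR2 lay at 20.5 to 28.5 TPM and overlapped with BMPR1A. Most of the BMPR1A value came from a transcript of 421 bases, with 19.5 to 80.1 reads per library, and one annotated for nonsense-mediated decay. BMPR1A-201, a coding transcript of 11255 bases, had 2.74 ± 0.251 TPM (SD over 15 libraries). The place of BMPR1A in this order is thus uncertain. ID4 was lower, at 15.5 to 19.1 TPM. BMP2 was close to silent, with 0.329 to 0.683 TPM and 15 to 47 counts per library. HGrC1 cells thus held transcripts of both receptors, all ID genes and the antagonist, and far more of BMP4 than of BMP2.

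**Figure D2:**
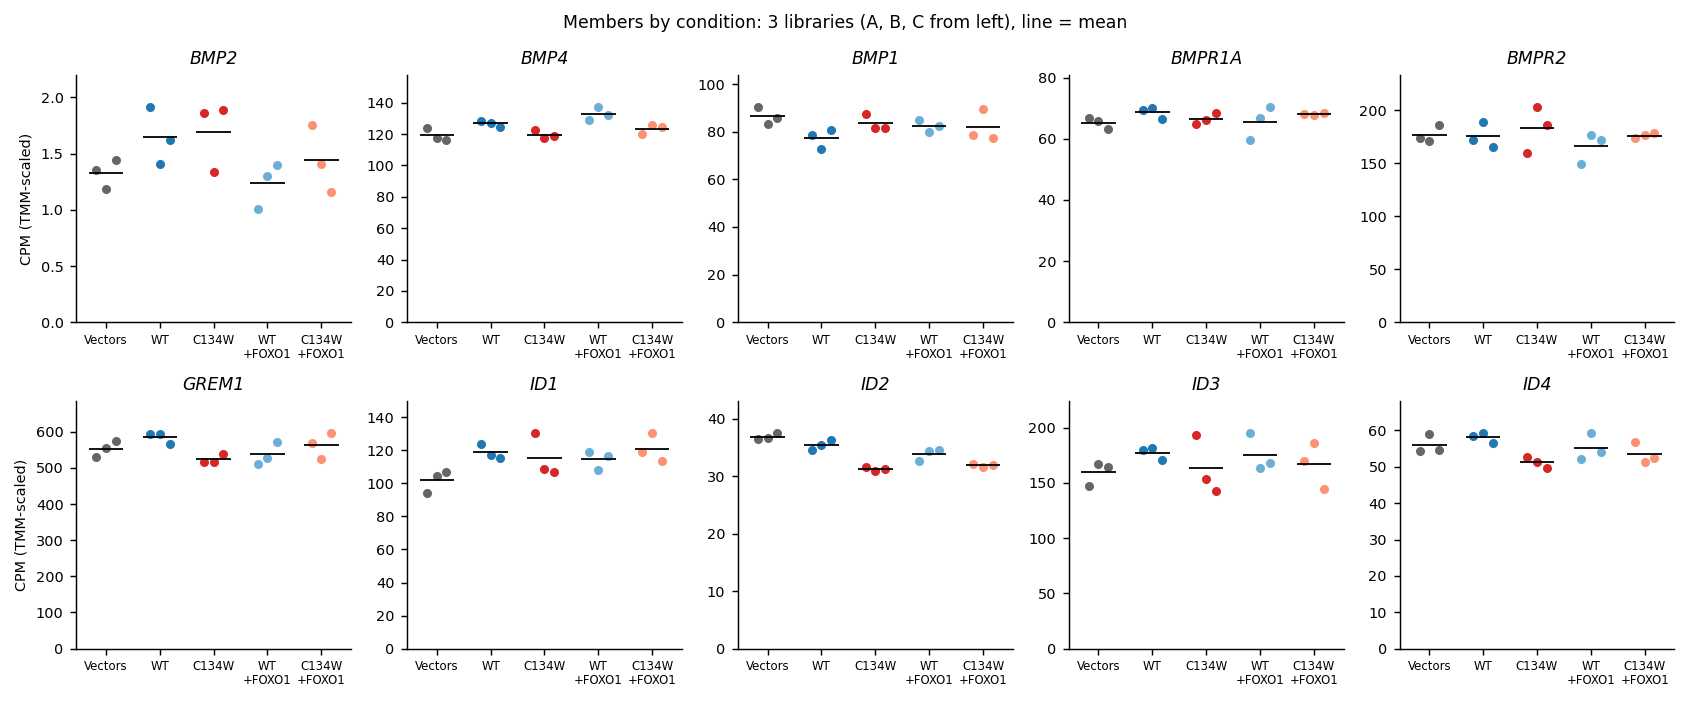
CPM of the 10 members in each library (points, A, B and C from left) with the mean of each condition (line). The members moved little between conditions, and ID2 had its 3 lowest values in the FOXL2C134W libraries, 30.8 to 31.6 CPM, against 36.5 to 37.5 CPM in Vectors.

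Differences between conditions were small for every member. The ratio of the highest to the lowest condition mean ran from 1.05 for BMPR1A to 1.19 for ID1, with 1.37 for the sparsely counted BMP2. Over all 5 conditions, ID2 (edgeR adjusted p = 0.0057) and BMP4 (edgeR adjusted p = 0.038) differed, where 16.4% of all genes did. In FOXL2WT against Vectors no member was called (background 6.07%). An unadjusted p under 0.05 by edgeR was reached there by 3 members and by 2878 of all 13868 genes tested. In FOXL2C134W against Vectors 1 member was called (background 14.7%), and in FOXL2C134W against FOXL2WT 3 were (background 11.2%). The replicates of the 2 conditions did not overlap for 5 members in FOXL2WT against Vectors (31.1% of all genes), for 3 in FOXL2C134W against Vectors (31.8%) and for 5 in FOXL2C134W against FOXL2WT (30.4%). The median log2 fold change of the members in these comparisons was 0.08, 0.02 and -0.07, beside 0.0025, 0.0043 and -0.012 over all genes tested. The median absolute log2 fold change of the members, 0.08, 0.06 and 0.10, stood beside 0.10, 0.11 and 0.11 over all genes. These comparisons share libraries and are not independent of each other.

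**Figure D3:**
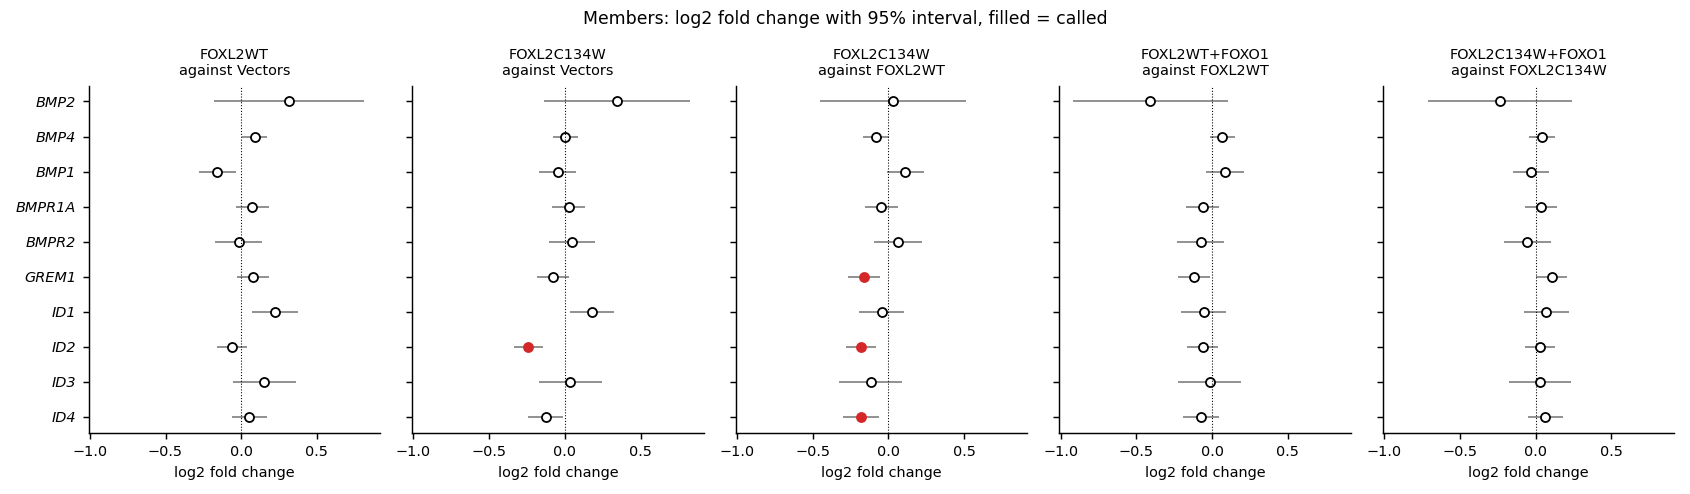
Log2 fold changes of the 10 members in 5 comparisons, with 95% intervals from the edgeR fit of all 15 libraries. Filled points are members with an adjusted p under 0.05: ID2 in FOXL2C134W against Vectors, and GREM1, ID2 and ID4 in FOXL2C134W against FOXL2WT.

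ID2, a dominant negative partner of E proteins fell in cells with the mutant. It had 36.5, 36.7 and 37.5 CPM in Vectors, 34.6, 35.4 and 36.3 CPM in FOXL2WT and 31.6, 30.8 and 31.3 CPM in FOXL2C134W. In CPM, the libraries of FOXL2C134W lay below all libraries of both other conditions, and those of FOXL2WT just below those of Vectors. In TPM, FOXL2C134W (33.1 to 38.059) overlapped with FOXL2WT (36.8 to 39.1), which overlapped with Vectors (38.065 to 47.6). The log2 fold change against Vectors was -0.24 (standard error 0.05, edgeR adjusted p = 0.0018) in FOXL2C134W and -0.06 (standard error 0.05, edgeR adjusted p = 0.52) in FOXL2WT. The direct difference between FOXL2C134W and FOXL2WT was -0.18 (standard error 0.05, edgeR adjusted p = 0.019). The fall against Vectors was called in 6 of 6 fits that left out 1 library and in 7 of 7 other settings. The difference from FOXL2WT was called in 2 of 6 and 4 of 7, with edgeR adjusted p = 0.071 and 0.098 without FOXL2WT replicate B or C and 0.097 and 0.058 without FOXL2C134W replicate B or C. With transcript length offsets in DESeq2 this call was lost. The level of ID2 stayed low with FOXO1, at 32.2, 31.6 and 31.95 CPM in FOXL2C134W+FOXO1, while FOXL2WT+FOXO1 had 32.7, 34.5 and 34.5 CPM. In GENCODE 44 the ID2 gene spans bases 8678845 to 8684461 of chromosome 2, ID4 bases 19837370 to 19842197 of chromosome 6, ID1 bases 31605283 to 31606515 of chromosome 20 and GREM1 bases 32718004 to 32745106 of chromosome 15.

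ID4, another of these E protein partners, was lowest in FOXL2C134W as well. Its values were 54.3, 59.0 and 54.7 CPM in Vectors, 58.6, 59.3 and 56.6 CPM in FOXL2WT and 52.6, 51.3 and 49.8 CPM in FOXL2C134W. The FOXL2C134W libraries lay below all 6 others. Against FOXL2WT the log2 fold change was -0.18 (standard error 0.06, edgeR adjusted p = 0.043). Against Vectors it was -0.13 (standard error 0.06, edgeR adjusted p = 0.14) and did not pass. With FOXO1 the values were 52.3, 59.2 and 54.1 CPM in FOXL2WT+FOXO1 and 56.9, 51.2 and 52.5 CPM in FOXL2C134W+FOXO1, so these conditions overlapped. The call against FOXL2WT was kept in 1 of 6 fits that left out 1 library, the fit without FOXL2C134W replicate A. In the other 5 the edgeR adjusted p ran from 0.078 without FOXL2WT replicate C to 0.16 without FOXL2WT replicate B or FOXL2C134W replicate C, with 0.12 without FOXL2WT replicate A and 0.14 without FOXL2C134W replicate B.

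ID1, an ID gene often used as a readout of BMP activity, passed the threshold in none of the comparisons among Vectors, FOXL2WT and FOXL2C134W. It had 94.4, 104 and 107 CPM in Vectors, 124, 117 and 116 CPM in FOXL2WT and 130, 109 and 107 CPM in FOXL2C134W. All libraries with FOXL2WT lay above those of Vectors, and the lowest library with FOXL2C134W was level with the highest of Vectors. The log2 fold change against Vectors was 0.22 (standard error 0.07, edgeR adjusted p = 0.071) in FOXL2WT and 0.18 (standard error 0.07, edgeR adjusted p = 0.10) in FOXL2C134W, and neither passed. The call for FOXL2WT depended on the setting, with an adjusted p of 0.041 in DESeq2, 0.0048 in edgeR when only the compared conditions were fitted and 9.9e-04 when genes with few counts were kept. It was made in these 3 of 7 other settings and in 0 of 6 fits that left out 1 library, with an adjusted p of up to 0.32. FOXL2C134W and FOXL2WT differed by -0.04 (95% interval -0.19 to 0.10). With FOXO1 the values were 119, 108 and 117 CPM in FOXL2WT+FOXO1 and 119, 130 and 114 CPM in FOXL2C134W+FOXO1.

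ID3 did not differ past the threshold in any comparison, and its libraries spread more than those of any member but BMP2. It had 147, 167 and 164 CPM in Vectors, 180, 181 and 170 CPM in FOXL2WT and 194, 153 and 142 CPM in FOXL2C134W. FOXL2C134W thus held both high and low values, replicate A being the highest of these 9. The log2 fold change was 0.15 in FOXL2WT (standard error 0.10, edgeR adjusted p = 0.41) and 0.04 in FOXL2C134W (standard error 0.10, edgeR adjusted p = 0.86), each against Vectors. The spread within conditions was 10.8% for ID3 and 7.17% for ID1, against 1.97% for ID2 and 4.63% for ID4. Counting alone gives 1.69% for ID3, 2.03% for ID1, 3.67% for ID2 and 2.86% for ID4 at their median counts, so the replicates of ID2 lay closer together than counting error alone gives on average.

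ID1 and ID3 varied together from library to library. Pearson's r of their log2-CPM was 0.75 over the 15 libraries (Spearman's rho 0.79), and r of the deviations from the condition means was 0.91. In FOXL2C134W, for example, replicate A was highest for both genes. ID2 and ID4 had r = 0.67 over the libraries and 0.30 for the deviations. The library and its scaling are shared by both genes of a pair, and these values describe 45 pairs of members without a test.

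**Figure D4:**
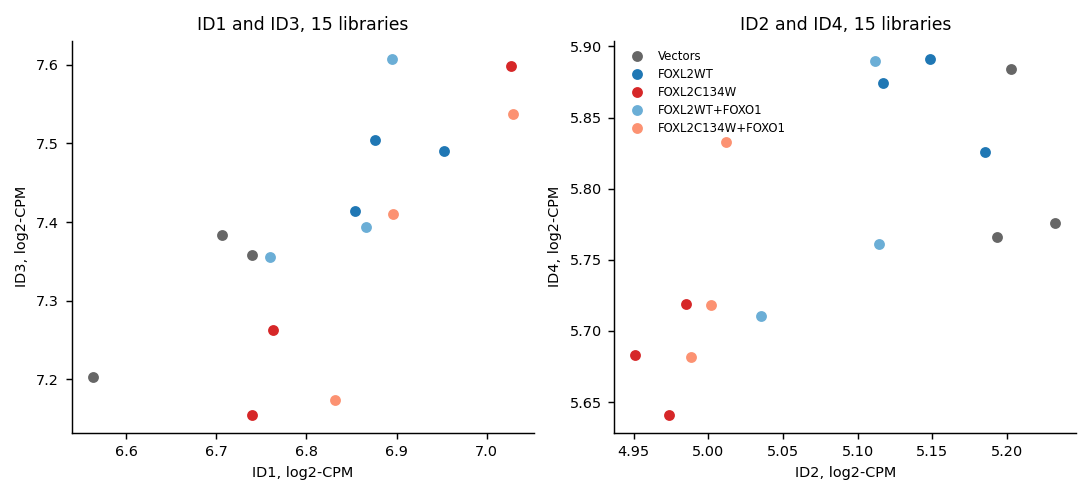
Log2-CPM of ID3 against ID1 (left) and of ID4 against ID2 (right) in the 15 libraries, coloured by condition. ID1 and ID3 rise together within conditions (r = 0.91 for the deviations from condition means), and the FOXL2C134W libraries lie at the low end of ID2 and ID4.

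GREM1, the antagonist, was lower in FOXL2C134W than in FOXL2WT. It stood at 529, 556 and 575 CPM in Vectors, 594, 595 and 565 CPM in FOXL2WT and 515, 516 and 539 CPM in FOXL2C134W. The FOXL2WT and FOXL2C134W libraries did not overlap, while Vectors lay between and overlapped with both. The log2 fold change between FOXL2C134W and FOXL2WT was -0.16 (standard error 0.05, edgeR adjusted p = 0.045). Against Vectors it was 0.08 in FOXL2WT (edgeR adjusted p = 0.39) and -0.08 in FOXL2C134W (edgeR adjusted p = 0.32). The call between both FOXL2 forms was lost in each of 6 fits without 1 of their libraries, with an edgeR adjusted p of 0.060 without FOXL2WT replicate C to 0.17 without FOXL2WT replicate B or FOXL2C134W replicate B. With FOXO1, the values were 512, 528 and 573 CPM in FOXL2WT+FOXO1 and 569, 524 and 596 CPM in FOXL2C134W+FOXO1. The effect of FOXO1 on GREM1 was -0.12 on the log2 scale with FOXL2WT (edgeR adjusted p = 0.49) and 0.11 with FOXL2C134W (edgeR adjusted p = 0.44). The difference of these effects, 0.23 (standard error 0.07), had the smallest p of the members but did not pass (edgeR adjusted p = 0.14).

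BMP4, a secreted ligand of BMPR1A and BMPR2, had 124, 118 and 116 CPM in Vectors, 128, 127 and 125 CPM in FOXL2WT, 123, 117 and 119 CPM in FOXL2C134W, 129, 137 and 132 CPM in FOXL2WT+FOXO1 and 120, 126 and 124 CPM in FOXL2C134W+FOXO1. The highest 2 values were those of FOXL2WT+FOXO1 replicates B and C. FOXL2WT+FOXO1 against Vectors, a comparison added after seeing the data, had BMP4 higher by 0.16 on the log2 scale (standard error 0.04, edgeR adjusted p = 0.034), the only member called there (background 3.78%). The call was lost without Vectors replicate B (edgeR adjusted p = 0.12) or C (0.15) and without FOXL2WT+FOXO1 replicate B (0.14) or C (0.085). It was also lost in 3 of 7 other settings (adjusted p = 0.061 to 0.21). BMP4 differed from Vectors by 0.09 in FOXL2WT (edgeR adjusted p = 0.22) and by 0.00 in FOXL2C134W (95% interval -0.08 to 0.09). BMP2 had 1.01 to 1.92 CPM, and its 95% interval in FOXL2C134W against Vectors was -0.14 to 0.83 on the log2 scale, so its change was only loosely bounded at this depth.

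The receptors did not differ past the threshold in any comparison. BMPR2, the type II receptor, had 171 to 187 CPM in Vectors, 165 to 189 CPM in FOXL2WT and 160 to 203 CPM in FOXL2C134W, fully overlapping ranges. Its log2 fold change between FOXL2C134W and FOXL2WT was 0.06 (95% interval -0.09 to 0.22). BMPR1A, a type I receptor, had 63.2 to 66.9 CPM in Vectors, 66.5 to 70.1 CPM in FOXL2WT and 64.9 to 68.4 CPM in FOXL2C134W. The interval of its difference between FOXL2C134W and FOXL2WT was -0.16 to 0.06. BMP1 had 90.4, 83.3 and 85.9 CPM in Vectors, 78.6, 72.7 and 80.9 CPM in FOXL2WT and 87.6, 81.7 and 81.7 CPM in FOXL2C134W. The FOXL2WT libraries lay below both other conditions, and differed from Vectors by -0.16 on the log2 scale (edgeR adjusted p = 0.12).

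FOXO1 did not move any member past the threshold. None was called in FOXL2WT+FOXO1 against FOXL2WT (background 0.0505%), in FOXL2C134W+FOXO1 against FOXL2C134W (background 0.714%), in FOXL2C134W+FOXO1 against FOXL2WT+FOXO1 (background 0.144%) or in the difference between the FOXO1 effects (background 1.38%). With an unadjusted p under 0.05 there was 1 member in each of these 4 comparisons by edgeR. The same held for 1266, 1557, 1878 and 1736 of all 13868 genes tested, in the same order. DESeq2 called no member either. With FOXO1, ID2 differed by 0.03 on the log2 scale in FOXL2C134W (95% interval -0.07 to 0.13) and by -0.06 in FOXL2WT (95% interval -0.16 to 0.04). Against Vectors, FOXL2C134W+FOXO1 had 2 called members (background 9.33%), in a comparison added after seeing the data. ID2 fell by 0.21 on the log2 scale (standard error 0.05, edgeR adjusted p = 0.0075). It was called without each of 6 libraries and in 5 of 7 other settings, and lost with length offsets in DESeq2 (adjusted p = 0.20) and with genes of at least 1 count kept (0.058). ID1 rose by 0.25 (standard error 0.07, edgeR adjusted p = 0.031). ID1 lost its call without Vectors replicate A (edgeR adjusted p = 0.15) or B (0.063) and without FOXL2C134W+FOXO1 replicate A (0.063) or B (0.14).

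Other genes of the pathway were taken from lists of 74 ligands, receptors, SMAD factors, antagonists, targets and E proteins, of which 49 were tested. In FOXL2WT against Vectors 4 were called (background 6.07% of all genes), all lower. BAMBI, a pseudoreceptor that dampens TGF-beta and BMP signals, changed by -0.28, the co-receptor endoglin (ENG) by -0.26, the E protein TCF4 by -0.24 and the BMP binding protein BMPER by -0.26 (edgeR adjusted p = 0.0033 to 0.026). With length offsets in DESeq2, TCF4 had 0.81 (adjusted p = 0.61) and BMPER lost its call (adjusted p = 0.67). Of the 6 fits without 1 library, TCF4 kept its call in the one without FOXL2WT replicate C and BMPER in the one without Vectors replicate B, with an edgeR adjusted p of up to 0.13 and 0.12 in the others. ENG lost its call without Vectors replicate A or FOXL2WT replicate B (edgeR adjusted p = 0.13 in each). In FOXL2C134W against Vectors 5 were higher and 3 lower, where 14.7% of all genes were called. BAMBI fell from 78.1 ± 2.48 to 54.0 ± 2.73 CPM (SD, n = 3), or by 0.53 on the log2 scale (edgeR adjusted p = 3.5e-06). CRIM1, a transmembrane BMP binding protein, rose by 0.25, the corepressor SKI by 0.34 and the ubiquitin ligase SMURF2 by 0.24. SKI had 0.53 (adjusted p = 0.30) when DESeq2 was given length offsets. The remaining 4, outside the naming rule, were HIVEP1 and TCF3, which rose, and TWSG1 and ACVRL1, which fell. No SMAD of the BMP branch was called, with SMAD1 at 25.6 ± 1.07 CPM in Vectors and 25.3 ± 0.0666 CPM in FOXL2C134W. None of the 8 tested genes on the list of BMP-SMAD targets outside the ID family was called in either comparison. That list does not hold every gene that may respond to BMP. BAMBI, called in both, was listed with the receptors, and SMAD6 and SMAD7 with the SMADs.

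Between FOXL2C134W and FOXL2WT, 5 of the 49 were higher and 1 lower, where 11.2% of all genes were called. SKI rose by 0.36, HIVEP1, a zinc finger factor, by 0.47, the E protein TCF3 by 0.24 and BAMBI fell by 0.25 on the log2 scale (edgeR adjusted p = 5.0e-04 to 0.0062). CRIM1 and ENG, outside the naming rule, rose too. BAMBI had 60.2 to 68.6 CPM in FOXL2WT and 50.9 to 55.8 CPM in FOXL2C134W. Its call was lost without FOXL2WT replicate C or FOXL2C134W replicate B (edgeR adjusted p = 0.053 in each). SKI, HIVEP1 and TCF3 lost theirs in DESeq2 with transcript length offsets (adjusted p = 0.16, 0.42 and 0.059). The median log2 fold change of the 49 genes was 0.01, beside -0.012 over all genes. With FOXO1 added to either FOXL2 none of the 49 was called. Against Vectors, 3 were lower and none higher in FOXL2WT+FOXO1 (background 3.78%), and 4 were higher and 3 lower in FOXL2C134W+FOXO1 (background 9.33%). BAMBI and TWSG1 were lower in both. BAMBI changed by -0.23 in FOXL2WT+FOXO1 and by -0.39 in FOXL2C134W+FOXO1, and TWSG1 by -0.23 and -0.29. BMPER was also lower in FOXL2WT+FOXO1 (-0.25), while in FOXL2C134W+FOXO1 SMURF2 was higher (0.28) and the co-receptor NEO1 lower (-0.36). The other 3 higher ones, outside the naming rule, were TLL1 (0.58), TCF12 (0.19) and RGMB (0.18). With length offsets in DESeq2, BMPER had -0.55 (adjusted p = 0.18), TWSG1 in FOXL2WT+FOXO1 -0.15 (adjusted p = 0.063) and NEO1 -0.37 (adjusted p = 0.38), and BMPER kept its call in 3 of 7 other settings. In FOXL2WT+FOXO1, BAMBI lost its call without Vectors replicate A (edgeR adjusted p = 0.099) or C (0.052) or FOXL2WT+FOXO1 replicate B (0.083), and BMPER without Vectors replicate A (0.13) or C (0.19) or FOXL2WT+FOXO1 replicate B (0.13) or C (0.17). NEO1 lost its call without Vectors replicate A (edgeR adjusted p = 0.12) or FOXL2C134W+FOXO1 replicate A (0.084) or C (0.067).

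**Figure D5:**
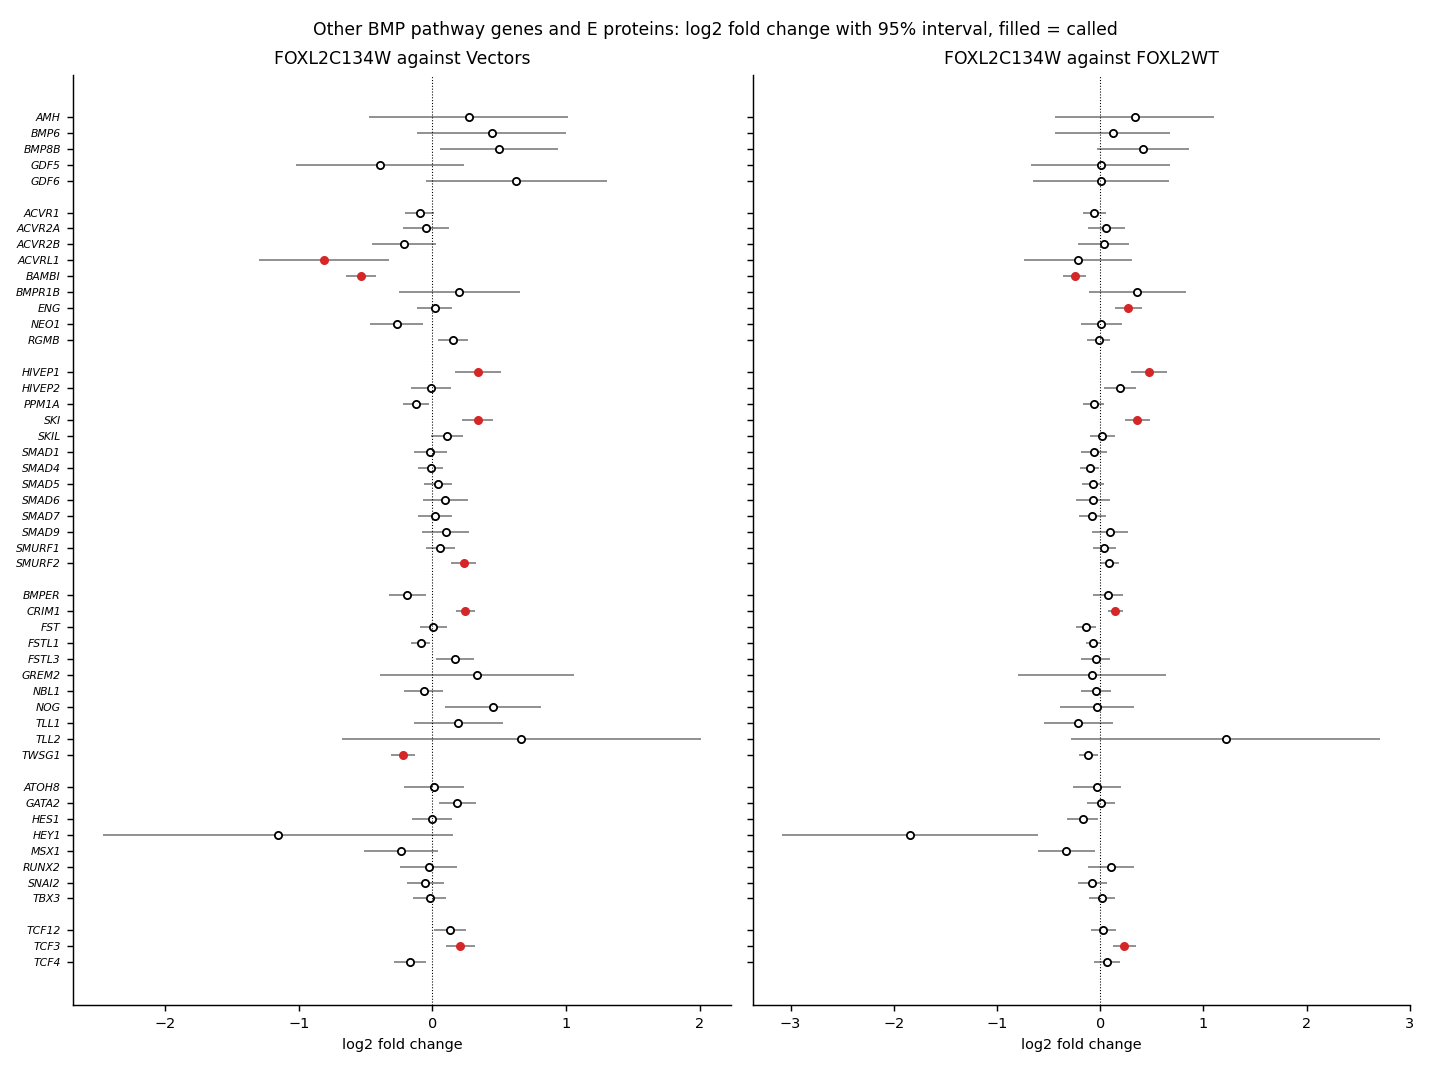
Log2 fold changes of the 49 tested BMP pathway genes and E proteins that are not members, grouped from top as ligands, receptors and co-receptors, SMADs and regulators, antagonists and modulators, targets, and E proteins, with 95% intervals. Filled points have an edgeR adjusted p under 0.05, 8 in FOXL2C134W against Vectors (left) and 6 against FOXL2WT (right).

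In each role the tested member with the largest F statistic over the conditions was compared with all other genes over the 15 libraries. The profile of ID2 was most like those of ITM2B (Pearson's r = 0.96), TRAFD1 (0.96) and RNF149 (0.96). For GREM1 the nearest were GBP1 (0.91), RCN1 (0.86) and PTX3 (0.86), for BMPR2 UBXN7 (0.94), MED13 (0.93) and PANK3 (0.92), and for BMP4 PIGP (0.83), METTL22 (0.83) and C2orf68 (0.82). When only deviations within conditions were used, r stayed at 0.91 to 0.94 for the BMPR2 neighbours and dropped to 0.61, 0.73 and 0.33 for those of ID2. These genes were picked as the highest of all, so the values carry no test.

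The transcript tables give the composition of each gene without a test. ID1, ID2, ID3 and ID4 were each carried mainly by 1 transcript, ID1-202 with 95.4% of the gene's TPM, ID2-203 with 90.7% (74.8% to 100%), ID3-201 with 98.2% and ID4-201, the one transcript listed. GREM1 was split between GREM1-204 and GREM1-202. The share of GREM1-202 was 18.02% to 20.9% in Vectors, 23.8% to 27.7% in FOXL2WT, 20.1% to 21.5% in FOXL2C134W, 26.3% to 29.0% in FOXL2WT+FOXO1 and 21.8% to 26.7% in FOXL2C134W+FOXO1. The libraries with FOXL2WT, with and without FOXO1, lay above all of those with Vectors or with FOXL2C134W without FOXO1. Those of FOXL2C134W+FOXO1 overlapped with both FOXL2WT and FOXL2WT+FOXO1. BMP4 was spread over several transcripts, and the share of its transcript BMP4-205 went from 0 to 40.3% between libraries. BMPR1A was assigned mainly to BMPR1A-202, a fragment of 421 bases (45.6%), and BMPR1A-204, annotated for nonsense-mediated decay (43.96%). The coding transcript BMPR1A-201, of 11255 bases, had 8.45%. These are estimates of how shared reads divide. Reads of ID2 and BMPR1A can also be shared with processed pseudogenes, so their levels carry that uncertainty.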

How the data were processed

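RNA-seq of 15 HGrC1 libraries was analysed from the deposited files. With salmon 1.1.0 and the hg38 build, the authors quantified single-end reads of 75 bp per transcript and deposited estimated counts per gene, as whole numbers without normalization, and TPM and estimated reads per transcript. The GENCODE release is not given in the sources used here, and coordinates are those of GENCODE 44. No column was left unmapped (0). The members and the gene lists were chosen with earlier results of these data known.

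Counts were fitted in R 4.3.3 with edgeR 4.0.16, with filterByExpr, TMM scaling and the quasi-likelihood test, all 15 libraries in one model. A Benjamini-Hochberg adjusted p under 0.05 over 13868 genes was a call. Log2-CPM used prior count 2. The script was tested on simulated counts. Named were all members, the transfected genes, in each comparison up to 4 called genes of the other lists with the smallest p, and 3 genes of like pattern per role. Alternatives were DESeq2 1.42.0, with and without transcript length offsets (the route of the study), its size factors, filters of 1 count in any or 10 in every library, the compared conditions alone, a replicate block and leaving out each library. Replicates differed by 2.21 to 8.63 times the counting variance, that is, by more than counting error. This cannot tell separate transfections from repeated libraries of one RNA. Intervals cover the spread between libraries. Both comparisons of FOXO1 conditions with Vectors, and the counts of other pathway genes, were added after seeing the data.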

Additional observations from a re-analysis of the deposited data

Results flagged for a closer look

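A difference between the effect of FOXO1 in FOXL2C134W and that in FOXL2WT passed the test for 4 of the genes described. HIVEP1, a zinc finger factor of the BMP SMAD pathway, had a difference of -0.49 on the log2 scale (edgeR adjusted p = 0.049), with 26.7 ± 2.92 CPM (SD, n = 3) in FOXL2C134W, 22.3 ± 1.22 CPM in FOXL2C134W+FOXO1, 19.2 ± 0.460 CPM in FOXL2WT and 22.5 ± 1.01 CPM in FOXL2WT+FOXO1. Of the 12 fits without 1 library it was called in the one without FOXL2C134W replicate A, with an edgeR adjusted p of 0.051 to 0.16 in the others, and DESeq2 given length offsets had 0.19 (adjusted p = 0.86). The other three are the transfected genes, FOXL2 with 0.60 (edgeR adjusted p = 0.033), SMAD3 with 0.41 (edgeR adjusted p = 0.0065) and FOXO1 with -1.41 (edgeR adjusted p = 4.7e-05). Counts of the transfected genes include RNA from the plasmids. FOXO1 reached 117 ± 14.5 CPM in FOXL2WT+FOXO1 and 43.2 ± 4.06 CPM in FOXL2C134W+FOXO1, so the level of FOXO1 RNA differed with the FOXL2 form. The part of this in the differences between FOXO1 effects was not tested. Conditions of 3 libraries were not examined for single outlying samples.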

How the results depend on the processing

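The direction of the 38 log2 fold changes followed here held in every alternative except DESeq2 with transcript length offsets, where TCF4 in FOXL2WT against Vectors turned to 0.81 and HIVEP1 in the difference of FOXO1 effects to 0.19. The cause was not tested. ID2 in FOXL2C134W against Vectors was called in all 13 alternatives. The number of members called in FOXL2WT against Vectors, 0, became 1 in DESeq2, 2 with genes of at least 1 count and 3 with the compared conditions alone. With genes of at least 1 count and with the compared conditions alone, the count of all genes called there rose too, as given below. In FOXL2C134W against Vectors it became 2 with genes of at least 1 count. In FOXL2C134W against FOXL2WT the 3 calls became 0 with length offsets, 1 with the size factors of DESeq2 and 0 to 2 without 1 library. Against Vectors, the call in FOXL2WT+FOXO1 became 0 with length offsets or the compared conditions alone and 0 to 1 without 1 library, and with genes of at least 1 count it was ID1 (adjusted p = 0.040) in place of BMP4 (0.061), and the 2 calls in FOXL2C134W+FOXO1 became 0 with length offsets, 1 with genes of at least 1 count and 1 to 2 without 1 library. In the difference of FOXO1 effects, 1 member, GREM1, was called with genes of at least 1 count, and 0 to 1 without 1 library.

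Counts of all genes called moved as follows. Length offsets gave 488 in FOXL2WT against Vectors, 972 in FOXL2C134W against Vectors, 759 in FOXL2C134W against FOXL2WT, 69 in FOXL2WT+FOXO1 against FOXL2WT, 61 in FOXL2C134W+FOXO1 against FOXL2C134W, 65 in FOXL2C134W+FOXO1 against FOXL2WT+FOXO1, 744 in FOXL2C134W+FOXO1 against Vectors and 120 in the difference of FOXO1 effects. DESeq2 gave 62, 224 and 95 in the 3 comparisons of FOXO1 conditions in the same order and 366 in the difference. Genes of at least 1 count gave 1345 in FOXL2WT against Vectors, then 260, 463 and 446, 954 in FOXL2WT+FOXO1 against Vectors and 551 in the difference. At least 10 counts in every library gave 13, 170 and 32, and the compared conditions alone 14, 32 and 9, with 1690 in FOXL2WT against Vectors. Without 1 library the counts ran from 305 to 662 in FOXL2WT against Vectors, 1275 to 2126 in FOXL2C134W against Vectors, 772 to 2120 in FOXL2C134W against FOXL2WT, 2 to 7, 5 to 355 and 7 to 20 in the FOXO1 comparisons, 215 to 412 and 764 to 1122 against Vectors with FOXO1, and 45 to 423 in the difference.

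The replicate letters did not pair the libraries: deviations of the same letter had a median correlation of 0.0036 over 30 pairs, and 5 of 15 libraries correlated best with their own letter. With the letter as a replicate block the members called stayed at 0, 1 and 3 in the first 3 comparisons, and 1562 genes in all were called in FOXL2C134W against FOXL2WT. It ended the calls of BMPER in FOXL2WT+FOXO1 against Vectors (-0.24, adjusted p = 0.059) and of HIVEP1 in the difference of FOXO1 effects (-0.48, adjusted p = 0.059), and no other call among the 38 fold changes followed. The smallest library had 14962245 counts. Depth limits the precision of BMP2, with 15 to 47 counts, and of ID2, whose spread within conditions (1.97%) was below that of counting (3.67%).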
